A study of Mus musculus with 18 samples.

Results

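The genes described here are those of the muscle acetylcholine receptor and of the postsynaptic apparatus that clusters it. The 10 members were chosen by name from textbook knowledge of the neuromuscular junction, out of 46725 genes in the count files. They and the other gene lists used below were chosen with earlier results of these data known. The members are Chrna1, Chrnb1, Chrnd, Chrne, Chrng, Musk, Dok7, Rapsn, Lrp4 and Ache, and all 10 were measured and passed the filter on low counts in both muscles. Libraries came from gastrocnemius and quadriceps of mice aged 20 weeks: 3 untreated WT mice of the FVB strain, 3 untreated HSA-LR mice and 3 HSA-LR mice given Pip6a-PMO, with both muscles taken from each mouse. HSA-LR mice carry a human skeletal actin transgene with an expanded CTG repeat that is transcribed in skeletal muscle and not in nerve, and Pip6a-PMO is a peptide-conjugated antisense oligonucleotide against the repeat, injected intravenously. The protocol label names saline as the other injection whereas the controls are labelled untreated, so whether they received saline is unclear from the labels.

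At the neuromuscular junction, acetylcholine released by the motor nerve opens a pentameric receptor on the muscle fiber. The fetal form of the receptor contains the gamma subunit, which the epsilon subunit replaces after birth. Agrin from the nerve binds LRP4, which activates the kinase MuSK with the help of the adaptor DOK7, and rapsyn then anchors the receptors in a dense patch. In innervated adult muscle, electrical activity keeps the receptor and MuSK genes nearly silent outside the few nuclei beneath the nerve ending. After denervation, transcripts of Chrna1, Chrnd, Chrng and Musk rise along the whole fiber, through E-boxes that bind myogenic factors such as MyoD and myogenin, so these genes are commonly used to read denervation. The members were compared between groups to see whether such a pattern was present in these muscles.

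Promoters of 7 of the 10 members (8 windows, Dok7 having 2) were found in the RefSeq table for GRCm38.p6, each spanning 250 bases before to 50 bases after the start site. The windows were searched on both strands for CAGCTG, an E-box core, and for CCGGAA, the core of the N-box known from synapse-specific genes. Those 2 motifs do not overlap each other in these windows. The promoters of Chrna1, Musk and Chrng are shown because these 3 genes had the largest differences described below, and that of Chrne because it held the N-box core. Capitals mark the motif matches.
Chrna1: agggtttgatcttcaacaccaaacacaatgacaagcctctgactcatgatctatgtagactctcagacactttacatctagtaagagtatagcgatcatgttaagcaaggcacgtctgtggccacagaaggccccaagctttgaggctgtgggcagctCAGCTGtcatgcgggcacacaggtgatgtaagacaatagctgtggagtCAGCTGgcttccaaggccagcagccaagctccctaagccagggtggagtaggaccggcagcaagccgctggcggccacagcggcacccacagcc
Musk: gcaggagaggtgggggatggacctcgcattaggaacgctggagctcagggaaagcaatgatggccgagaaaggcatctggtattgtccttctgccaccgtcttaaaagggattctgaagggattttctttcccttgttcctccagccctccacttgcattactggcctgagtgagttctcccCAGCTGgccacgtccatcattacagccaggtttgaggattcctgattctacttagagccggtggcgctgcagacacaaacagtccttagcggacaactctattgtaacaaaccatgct
Chrng: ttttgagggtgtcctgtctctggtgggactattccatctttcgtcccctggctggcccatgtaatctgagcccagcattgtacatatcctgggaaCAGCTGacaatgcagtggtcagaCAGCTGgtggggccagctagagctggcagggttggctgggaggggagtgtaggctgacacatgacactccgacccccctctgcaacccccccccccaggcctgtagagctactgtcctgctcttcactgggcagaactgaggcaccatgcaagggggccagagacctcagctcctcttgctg
Chrne: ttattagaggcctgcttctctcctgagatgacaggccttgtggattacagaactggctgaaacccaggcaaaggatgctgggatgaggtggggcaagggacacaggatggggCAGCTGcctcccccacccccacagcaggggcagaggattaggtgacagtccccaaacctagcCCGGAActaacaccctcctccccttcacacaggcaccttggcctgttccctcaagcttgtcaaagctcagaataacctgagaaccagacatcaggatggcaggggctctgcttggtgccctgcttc
The Chrna1 window lies at chr2:73580289-73580588 on the minus strand and held CAGCTG 92 and 44 bases before the start site. The Musk window is at chr4:58285712-58286011 on the plus strand, with 1 CAGCTG at -68. The Chrng window is at chr1:87205561-87205860 on the plus strand, downstream of the first annotated base of the gene in GENCODE, with CAGCTG at -155 and -132. In the Chrne window (chr11:70619145-70619444, minus strand), CAGCTG stood at -138 and CCGGAA at -76. The windows of Ache, Chrnb1 and Dok7 held neither string. Of all 32851 promoter windows in the table, 16.3% held CAGCTG and 14.9% held CCGGAA.

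Depth was high, with library totals of 98916844 to 143135976 counts on exon bins. The labelled tissue was matched by 8 muscle fiber genes, all measured (108335 to 202025 in sum, as counts scaled to library size, CPM), and slow fiber genes summed to 1822 to 14316 CPM in the gastrocnemius and 85.2 to 2010 CPM in the quadriceps. Exon 7a of Clcn1, a splicing readout of the repeat, held 1.04% to 1.35% of that gene's counts in HSA-LR libraries and 0.0646% to 0.208% in WT and treated libraries. The labelled sex disagreed with the data in the WT group: in mouse 2, labelled female, 4 Y-linked genes summed to 153 and 188 CPM in the 2 muscles, and in mouse 3, labelled male, to 1.14 and 1.43 CPM. In all libraries of the other mice, in all 3 groups, the sum was 134 to 188 CPM, so the low sum was that of WT mouse 3 alone. The gastrocnemius library of treated mouse 3 stood apart in coverage, its median ratio of 5' to 3' read density over 4359 genes being 0.567 against 0.729 to 0.848 in the other 17 libraries. Comparisons are therefore also given without WT mouse 2, WT mouse 3 or treated mouse 3. A gene's level is the sum of its bin counts in CPM scaled by TMM, a difference is a log2 fold change (log2 FC ± SE) from edgeR's quasi-likelihood test, and a gene was called at an adjusted P under 0.1 over all genes.

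In GRCm38, Chrna1 lies at chr2:73563215-73580338 (minus strand), and Rapsn at chr2:91035620-91045729 and Lrp4 at chr2:91457511-91513779 lie on the plus strand of the same chromosome. Musk is at chr4:58285960-58374303, Dok7 at chr5:35056766-35087839 and Ache at chr5:137287519-137294466, all on the plus strand. Chrnd (chr1:87190607-87200070) and Chrng (chr1:87204657-87212694) are neighbours on the plus strand, and Chrnb1 (chr11:69784036-69795943) and Chrne (chr11:70614883-70619216) share a chromosome and the minus strand.

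Levels differed widely among the members. Per kilobase of exon, the WT gastrocnemius held the most Chrnb1, at 19.4 ± 2.98 CPM per kb (SD, n = 3), Rapsn at 17.4 ± 0.304 and Chrne at 14 ± 4.01, whose ranges overlapped. Next came Ache at 6.33 ± 0.767, Chrna1 at 4.53 ± 0.728, Dok7 at 4.24 ± 0.634 and Musk at 4.03 ± 1.02 CPM per kb, the last 3 within their spread of each other. Lrp4 stood at 1.42 ± 0.142 and Chrnd at 0.922 ± 0.396 CPM per kb. Chrng, the fetal subunit, was lowest at 0.109 ± 0.0405 CPM per kb, with 27 to 228 counts in any library. Since read pairs that span several bins count in each, these levels also depend on how finely a gene is cut into bins. In bulk muscle, fewer expressing nuclei and less RNA per nucleus cannot be told apart.

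**Figure D1:**
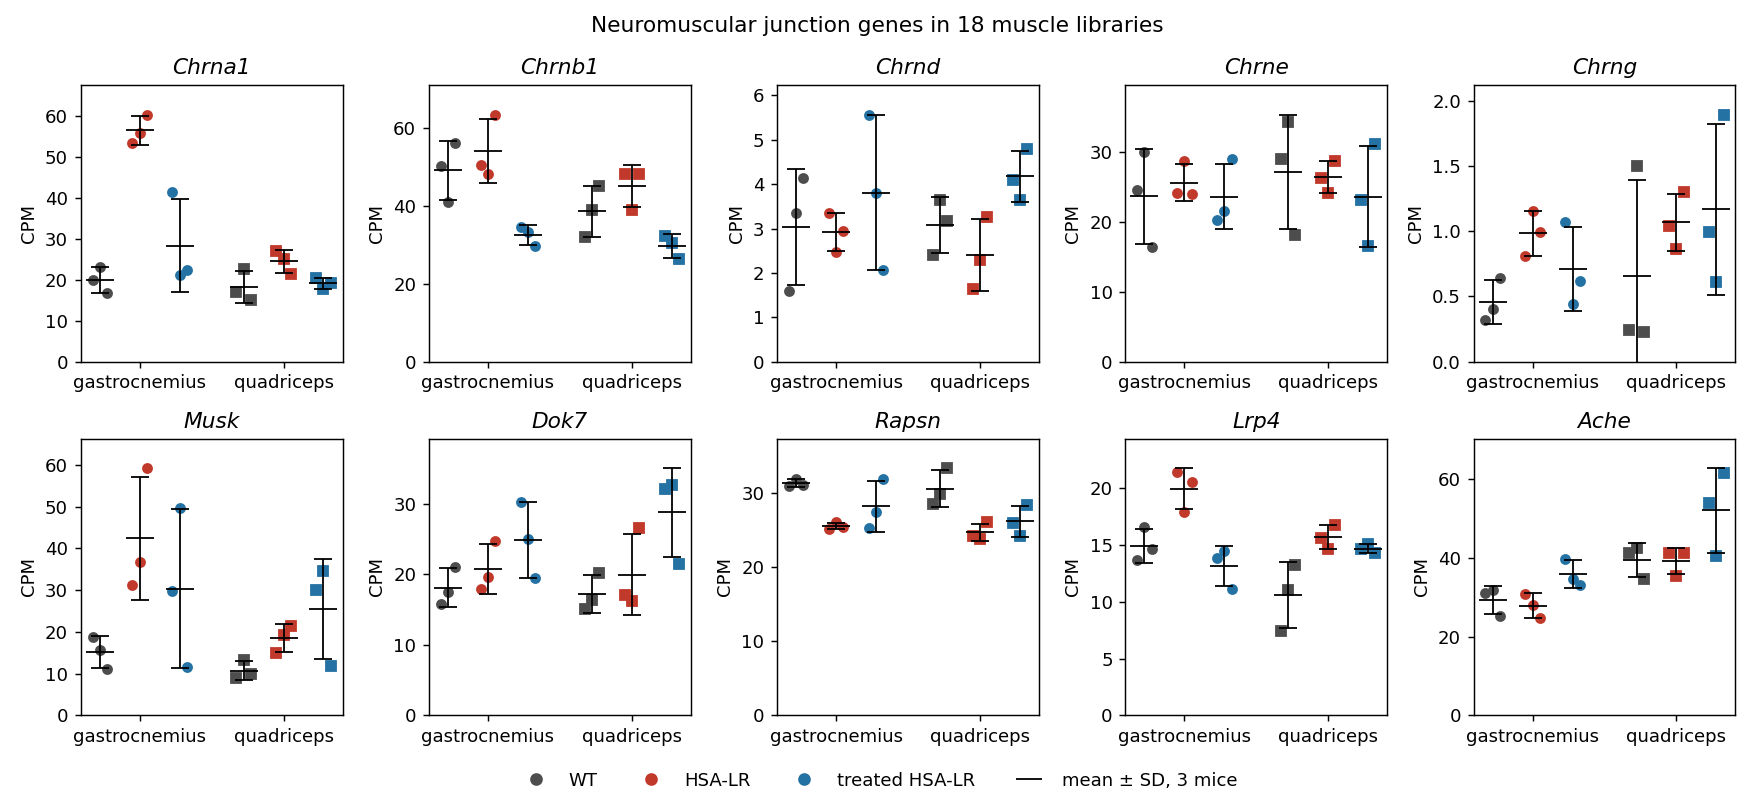
Levels of the 10 genes in each library, as TMM-scaled CPM on a linear axis from 0. Points are mice, bars the mean ± SD of 3 mice, with WT, HSA-LR and treated HSA-LR from left to right in each muscle. Chrna1 stood at 53.3 to 60.3 CPM in HSA-LR gastrocnemius and at most 41.4 CPM in any other library. The SD bar of Chrng in WT quadriceps reaches below the axis.

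In the gastrocnemius of HSA-LR mice, transcripts of the alpha subunit, the gamma subunit, MuSK and LRP4 were more abundant than in WT mice, and those of rapsyn were less abundant. Of the 10 members, 5 were called (4 higher and 1 lower), where 15.5% of all 15625 genes tested were called. The median log2 FC of the members was 0.15, against -0.01 over all genes. The delta, epsilon and beta subunits, Dok7 and Ache were not called, with log2 FCs between -0.08 and 0.18.

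Chrna1, the ligand-binding alpha subunit, was the member with the smallest P. Its level was 19.9, 23.1 and 16.7 CPM in the 3 WT mice and 53.3, 55.8 and 60.3 CPM in the 3 HSA-LR mice. Every HSA-LR value was above every WT value, and the rise was 2.82-fold (log2 FC 1.49 ± 0.24, adjusted P = 0.00571). All 15 alternative analyses called it, with log2 FCs between 1.37 and 1.61, including 1.61 without WT mouse 2 and 1.38 without WT mouse 3. The other 4 calls were less stable: only Chrna1 passed with the largest exon bin of each gene in place of the sum and with the mouse number as a block, and 1 or 2 members passed whenever a WT or an HSA-LR mouse was left out.

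Musk, the kinase that starts receptor clustering, was at 18.8, 15.7 and 11.2 CPM in WT mice and at 31.3, 36.7 and 59.2 CPM in HSA-LR mice. The groups did not overlap, and the HSA-LR mean carried a wide spread set by mouse 3. The rise was 2.76-fold (log2 FC 1.47 ± 0.46, adjusted P = 0.0763), and it was called in 7 of 15 alternatives, neither without WT mouse 2 (1.49, adjusted P = 0.171) nor without WT mouse 3 (1.28, adjusted P = 0.181).

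Chrng rose from 0.320, 0.402 and 0.644 CPM in WT mice to 0.808, 1.15 and 0.997 CPM in HSA-LR mice, a 2.14-fold difference (log2 FC 1.10 ± 0.36, adjusted P = 0.0916). The groups did not overlap, yet all values remained near or below 1 CPM, and the gene was called in 8 of 15 alternatives. Without WT mouse 2 the log2 FC of Chrng was 1.01 (adjusted P = 0.226, not called), and without WT mouse 3 it was 1.43 (adjusted P = 0.0555). Its adult counterpart Chrne was at 16.4 to 29.9 CPM in WT mice and 24.0 to 28.7 CPM in HSA-LR mice (log2 FC 0.10 ± 0.21, adjusted P = 0.813). Per kilobase, gamma subunit transcripts amounted to 0.529% to 1.59% of those of the epsilon subunit in WT mice and 1.36% to 1.69% in HSA-LR mice, and the ranges overlapped through WT mouse 3, which had the lowest Chrne. In these libraries the adult subunit thus exceeded the fetal one in both groups. The ratio divides by all annotated exon bases, 4163 for Chrng and 1690 for Chrne. In this muscle 4 of the 21 Chrng bins and 17 of the 19 Chrne bins passed the filter on low counts.

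Lrp4, the agrin receptor, was at 13.6, 16.6 and 14.6 CPM in WT mice and 21.4, 17.9 and 20.5 CPM in HSA-LR mice. The groups were separate (log2 FC 0.41 ± 0.13, adjusted P = 0.0765), with a log2 FC of 0.49 without WT mouse 2 and no call without WT mouse 3 (adjusted P = 0.157). Rapsn, the receptor anchor, was lower, at 31.0, 32.0 and 31.1 CPM in WT mice against 25.2, 26.1 and 25.5 CPM in HSA-LR mice. Both groups were tight and did not overlap, and Rapsn fell by 0.30 on the log2 scale (SE 0.09, adjusted P = 0.0653). This call was lost without WT mouse 2 (adjusted P = 0.173) and without WT mouse 3 (adjusted P = 0.110).

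Of the members not called, Chrnd, another subunit of the receptor, was at 1.60, 3.36 and 4.14 CPM in WT mice and 3.34, 2.48 and 2.95 CPM in HSA-LR mice. WT mouse 1 was the lowest of the 18 libraries for this gene, and the groups overlapped (log2 FC -0.07 ± 0.39, adjusted P = 0.939). Chrnb1 stood at 41.1 to 56.0 CPM in WT mice and 48.1 to 63.4 CPM in HSA-LR mice (log2 FC 0.13 ± 0.14). Dok7 differed by a log2 FC of 0.18 ± 0.18 and Ache, the enzyme that ends transmission by splitting acetylcholine, by -0.08 ± 0.12.

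**Figure D2:**
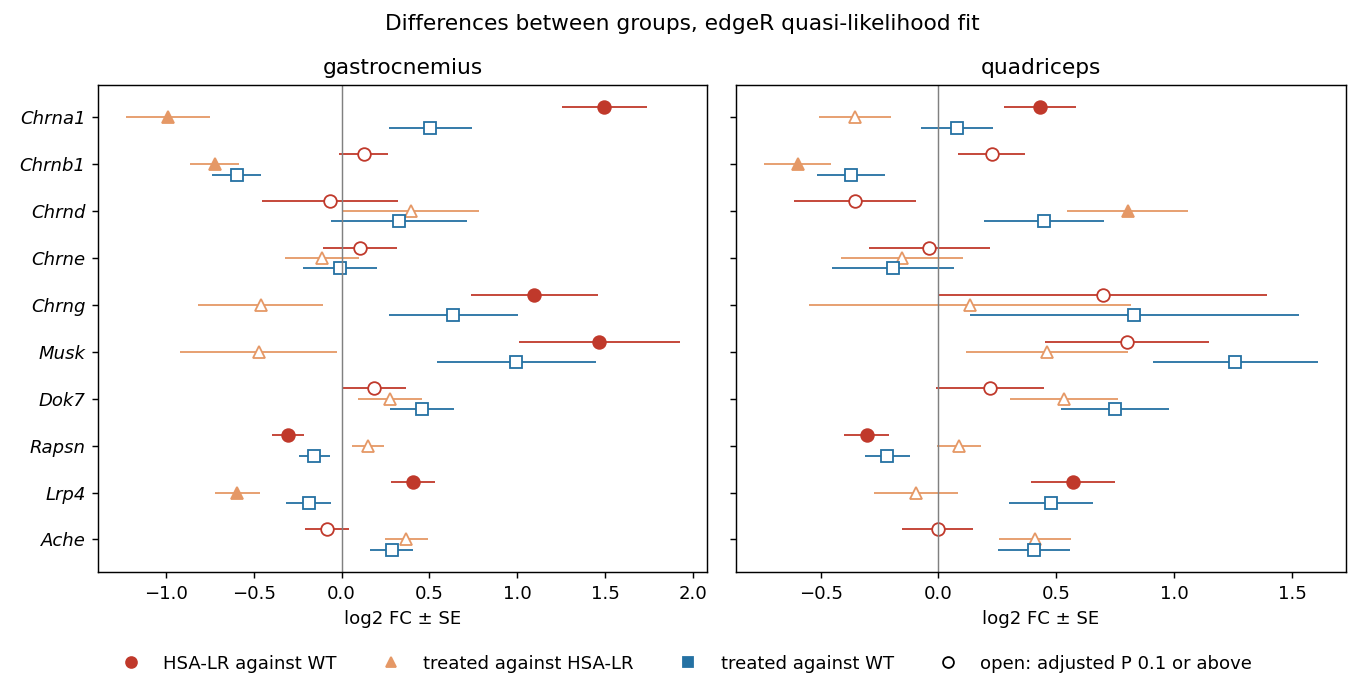
Log2 FC ± SE of each gene in the 3 comparisons of each muscle, with filled symbols for an adjusted P under 0.1. In the gastrocnemius the filled HSA-LR against WT symbols are Chrna1, Chrng, Musk and Lrp4 on the right of 0 and Rapsn on the left, and all treated against WT symbols are open in both muscles.

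After Pip6a-PMO treatment, Chrna1, Chrnb1 and Lrp4 were lower in the gastrocnemius than in untreated HSA-LR mice, and these 3 of 10 members were called, against 10% of all genes. Treated mice had 41.4, 21.1 and 22.3 CPM of Chrna1, so that mice 2 and 3 lay within the WT range (16.7 to 23.1 CPM) and mouse 1 between the WT and HSA-LR ranges. The fall relative to HSA-LR mice was 1.98-fold (log2 FC -0.99 ± 0.24, adjusted P = 0.0485). It was -1.37 without treated mouse 1 (adjusted P = 0.00524) and -0.85 without treated mouse 3 (adjusted P = 0.105, not called). The Chrna1 fall was called in 10 of 15 alternatives, and neither without treated mouse 2 (-0.81, adjusted P = 0.122) nor without any one of the HSA-LR mice (-1.03 to -0.94, adjusted P = 0.128 to 0.141). Treated mouse 1 was also the library with the highest sum of the 7 slow fiber genes, 14316 CPM against 1822 to 5213 CPM in the other gastrocnemius libraries. In treated quadriceps the slow fiber sums were 991, 2010 and 105 CPM, beside Chrna1 at 20.5, 17.6 and 19.2 CPM. The part of fiber type in the Chrna1 levels was not tested.

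Chrnb1, the beta subunit that rapsyn contacts, fell below both other groups in treated gastrocnemius. Its level was 34.6, 33.4 and 29.7 CPM in treated mice, against 50.5, 48.1 and 63.4 CPM in HSA-LR mice and 50.3, 41.1 and 56.0 CPM in WT mice. Treated and HSA-LR mice did not overlap (log2 FC -0.72 ± 0.14, adjusted P = 0.0226), and all 15 alternatives called the gene. Against WT mice the groups were also separate but the gene was not called (log2 FC -0.60 ± 0.14, adjusted P = 0.126). Lrp4 reached 13.8, 14.5 and 11.1 CPM in treated mice, below every HSA-LR mouse (log2 FC -0.59 ± 0.13, adjusted P = 0.0309; -0.49 without treated mouse 3).

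Musk varied widely between treated mice. Treated gastrocnemius held 29.7, 49.8 and 11.6 CPM, spanning the WT and HSA-LR ranges (log2 FC -0.47 ± 0.45 against HSA-LR mice, adjusted P = 0.573). The low value was that of mouse 3, whose gastrocnemius library has the low 5' coverage, and without it the log2 FC was -0.09. The same mouse was low in the quadriceps, at 11.9 CPM against 29.9 and 34.6 CPM in the other treated mice, and there its 5' to 3' ratio was 0.804. The part of coverage in the Musk levels of mouse 3 was not tested. Chrng was at 1.07, 0.443 and 0.618 CPM in treated gastrocnemius (log2 FC -0.46 ± 0.36) and Rapsn at 25.3, 27.5 and 32.0 CPM (log2 FC 0.15 ± 0.09), and neither was called. Ache was at 39.7, 34.6 and 33.0 CPM, above every HSA-LR mouse (24.7 to 30.8 CPM), without reaching the threshold (log2 FC 0.37 ± 0.12, adjusted P = 0.119).

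Against WT mice, edgeR called 0 of the 10 members in treated gastrocnemius, with 3 at an unadjusted P under 0.05 and 1 called by DESeq2 (Chrnb1). The share of all genes called was 1.04%. The 3 members under 0.05 were Chrnb1, Dok7 (log2 FC 0.46 ± 0.18) and Ache (0.29 ± 0.12), and every treated Ache value was above every WT value. Chrna1 (0.51 ± 0.24, unadjusted P = 0.061 by edgeR) and Musk (0.99 ± 0.45, unadjusted P = 0.054) were not among them.

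In the quadriceps of HSA-LR mice the same direction was seen for Chrna1, Lrp4 and Rapsn, with a smaller rise of Chrna1. These 3 members were called, where 20.3% of all 15574 genes tested were, and the median log2 FC of the members was 0.22 against 0.01 over all genes. Chrna1 was at 17.0, 22.6 and 15 CPM in WT mice and 27.0, 25.1 and 21.4 CPM in HSA-LR mice, and the groups overlapped (log2 FC 0.43 ± 0.15, adjusted P = 0.0959). It was called in 5 of 15 alternatives, at 0.61 without WT mouse 2 and not without WT mouse 3 (0.31, adjusted P = 0.245).

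Lrp4 rose in the quadriceps from 7.45, 11.0 and 13.2 CPM in WT mice to 15.6, 14.7 and 16.8 CPM in HSA-LR mice, with no overlap (log2 FC 0.57 ± 0.18, adjusted P = 0.0666). It was called in 9 of 15 alternatives, not without WT mouse 2 (adjusted P = 0.121). Rapsn fell by 0.31 on the log2 scale (SE 0.09, adjusted P = 0.0626), from 28.6, 29.9 and 33.4 CPM in WT mice to 24.3, 23.9 and 26.1 CPM in HSA-LR mice. These groups did not overlap either, and the call was kept in 11 of 15 alternatives, but not without WT mouse 2 (adjusted P = 0.101) or WT mouse 3 (adjusted P = 0.178). Leaving out HSA-LR mouse 1 or 2 left 0 of the 10 members called.

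Musk in the quadriceps was at 8.96, 13.2 and 9.85 CPM in WT mice and 14.8, 19.3 and 21.5 CPM in HSA-LR mice. The groups were separate but the gene was not called (log2 FC 0.80 ± 0.35, adjusted P = 0.170), and DESeq2 called it (adjusted P = 0.0794). Chrng was at 0.246, 1.5 and 0.231 CPM in WT mice and 1.04, 0.867 and 1.30 CPM in HSA-LR mice. WT mouse 2, labelled female but with Y-linked transcripts, was above every HSA-LR mouse; with it the log2 FC was 0.70 ± 0.70, and without it 2.16 (adjusted P = 0.0328). Chrnd, Chrne, Chrnb1, Dok7 and Ache were not called in HSA-LR quadriceps, with log2 FCs between -0.35 and 0.23.

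Summed marker genes of several cell types differed between the groups, though only the Schwann cell sums of HSA-LR and WT mice were separate in both muscles. Of the 12 Schwann cell genes, 1 was called higher and 0 lower in HSA-LR than in WT gastrocnemius, and 0 higher and 6 lower in the quadriceps. In HSA-LR against WT gastrocnemius, Schwann cell genes (12 measured) summed to 109 to 135 against 137 to 157 CPM, adipocyte genes (6 measured) to 166 to 236 against 285 to 350 CPM and erythroid genes (5 measured) to 507 to 678 against 775 to 3867 CPM. Macrophage genes (5 measured) were lower in treated than in HSA-LR mice, at 35.5 to 54.8 against 55.6 to 63.8 CPM in the gastrocnemius and 33.0 to 49.1 against 64.3 to 83.1 CPM in the quadriceps. The 8 muscle fiber genes summed to 108335 to 125457 CPM in HSA-LR and 132775 to 159536 CPM in WT quadriceps, and to 117161 to 128274 CPM in HSA-LR against 132548 to 202025 CPM in treated gastrocnemius. These sums hide unlike moves of single genes. Of the 8, 2 were called higher and 0 lower in HSA-LR than in WT gastrocnemius, and 1 higher and 3 lower in the quadriceps. In treated against HSA-LR gastrocnemius 3 were called higher and 2 lower. Mean Myh1 was 4320 CPM in WT, 16998 CPM in HSA-LR and 3236 CPM in treated gastrocnemius, and 4801, 9177 and 6008 CPM in the quadriceps. In HSA-LR against WT quadriceps, macrophage genes summed to 64.3 to 83.1 against 34.5 to 47.4 CPM and fibroblast genes (3 measured) to 454 to 486 against 292 to 374 CPM. Schwann cell genes summed to 62.4 to 92.9 against 103 to 130 CPM and endothelial genes (5 measured) to 156 to 196 against 232 to 300 CPM, while adipocyte genes overlapped at 126 to 1381 and 400 to 1393 CPM. No marker on these lists was at 0 in any library. The part of these cells in the members' differences was not tested.

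In treated quadriceps Chrnb1 was lower and Chrnd higher than in HSA-LR mice, 2 of 10 members called against 13.8% of all genes. Chrnb1 was at 32.3, 30.4 and 26.4 CPM in treated mice and 48.3, 38.9 and 48.1 CPM in HSA-LR mice, with no overlap (log2 FC -0.60 ± 0.14, adjusted P = 0.0431), and it was called in 12 of 15 alternatives. Chrnd was at 4.10, 3.64 and 4.78 CPM in treated mice and 1.64, 2.29 and 3.25 CPM in HSA-LR mice, also with no overlap (log2 FC 0.80 ± 0.26, adjusted P = 0.0944), in 4 of 15 alternatives. Chrna1 was at 20.5, 17.6 and 19.2 CPM in treated mice, below every HSA-LR mouse, but was not called (log2 FC -0.35 ± 0.15, adjusted P = 0.179). Without treated mouse 3 the called member was Musk (log2 FC 0.80, adjusted P = 0.0676) and neither Chrnb1 nor Chrnd passed.

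Lrp4 was not called in treated quadriceps, where its level was 14.7, 15.1 and 14.3 CPM (log2 FC -0.09 ± 0.18 against HSA-LR mice), above every WT mouse. The difference of this treatment effect between the muscles was a log2 FC of -0.50 ± 0.23 (adjusted P = 0.630), so it was not shown to differ. Dok7, the adaptor that activates MuSK, was at 32.0, 32.7 and 21.5 CPM in treated quadriceps and 17.0, 16.2 and 26.5 CPM in HSA-LR mice (log2 FC 0.53 ± 0.23, adjusted P = 0.179). Slow fiber genes summed to 991, 2010 and 105 CPM in these treated mice. The sums were 85.2 to 192 CPM in HSA-LR and 184 to 524 CPM in WT quadriceps. Like this sum, Dok7 and Musk (29.9, 34.6 and 11.9 CPM) were lowest in treated mouse 3. In treated gastrocnemius the slow fiber sums were 14316, 3153 and 2568 CPM. There Dok7 was at 30.2, 24.9 and 19.5 CPM and Musk at 29.7, 49.8 and 11.6 CPM, so Musk was highest in mouse 2 and the sum in mouse 1. The part of fiber type in the Dok7 and Musk levels of either muscle was not tested. Ache reached 53.9, 40.4 and 61.6 CPM in treated quadriceps and 41.3, 35.4 and 41.1 CPM in HSA-LR mice (log2 FC 0.41 ± 0.15, adjusted P = 0.133). Ache is also made by erythroid cells, and the 5 erythroid genes summed to 357 to 701 CPM in treated against 79.4 to 329 CPM in HSA-LR quadriceps, and to 905 to 3152 CPM against 507 to 678 CPM in the gastrocnemius; their part in the Ache levels was not tested.

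Against WT mice, edgeR called 0 members in treated quadriceps and DESeq2 called 2 (Musk and Dok7), with 6 at an unadjusted P under 0.05 by edgeR. Of all genes, 1.41% were called. Musk was 2.39-fold higher than in WT mice on average (log2 FC 1.26 ± 0.35, adjusted P = 0.193), with mouse 3 (11.9 CPM) inside the WT range and the other treated mice above it, and it was called without mouse 3 (1.59, adjusted P = 0.0238). Dok7 was above every WT mouse (log2 FC 0.75 ± 0.23, adjusted P = 0.232).

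In HSA-LR mice, as in WT mice, Chrna1 and Musk were more abundant in the gastrocnemius than in the quadriceps of every mouse. Chrnb1 and Lrp4 were also higher, and Ache lower, in the gastrocnemius of each mouse of both groups. In HSA-LR mice the gastrocnemius level of Chrna1 exceeded the quadriceps level 2.30-fold on average (log2 FC 1.20 ± 0.22, adjusted P = 0.0221), whereas in WT mice the log2 FC was 0.13 ± 0.22. Musk had a log2 FC of similar size and a larger error in HSA-LR mice (1.19 ± 0.44, adjusted P = 0.237), and in WT mice its log2 FC was 0.51 ± 0.44. Chrna1 was the 1 member called in HSA-LR mice, where 2.21% of 16167 genes were called. With the mouse as a block, which pairs the muscles, 3 members were called, namely Chrna1, Musk (log2 FC 1.16, adjusted P = 0.0136) and Ache (log2 FC -0.50, adjusted P = 0.0541). Leaving out any HSA-LR mouse left 0 called.

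In WT mice edgeR called 0 members between the muscles (3 at an unadjusted P under 0.05, 0 by DESeq2), against 0.297% of all genes, and with the mouse block 1 was called, Lrp4. In treated mice edgeR called 0 members (2 at an unadjusted P under 0.05, 1 by DESeq2), against 1.47% of all genes, and with the mouse block Chrna1 (log2 FC 0.50, adjusted P = 0.0920) and Ache (-0.52, adjusted P = 0.0452) were called. Ache was lower in the gastrocnemius than in the quadriceps of all 9 mice, with log2 FCs of -0.43 ± 0.14 in WT, -0.49 ± 0.14 in HSA-LR and -0.54 ± 0.14 in treated mice. The erythroid genes went the other way, being higher in the gastrocnemius of all 9 mice.

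Whether HSA-LR mice differed from WT mice by unlike amounts in the muscles was tested as an interaction over all 18 libraries. The Chrna1 difference was larger in the gastrocnemius by a log2 FC of 1.08 ± 0.30 (adjusted P = 0.676, and 0.185 with the mouse block). No member was called (1 at an unadjusted P under 0.05, 0 by DESeq2), and the share of all genes called was 0.0%. The same test of the treatment effect also called 0 members (1 at an unadjusted P under 0.05, 0 by DESeq2) and 0.0% of genes.

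**Figure D3:**
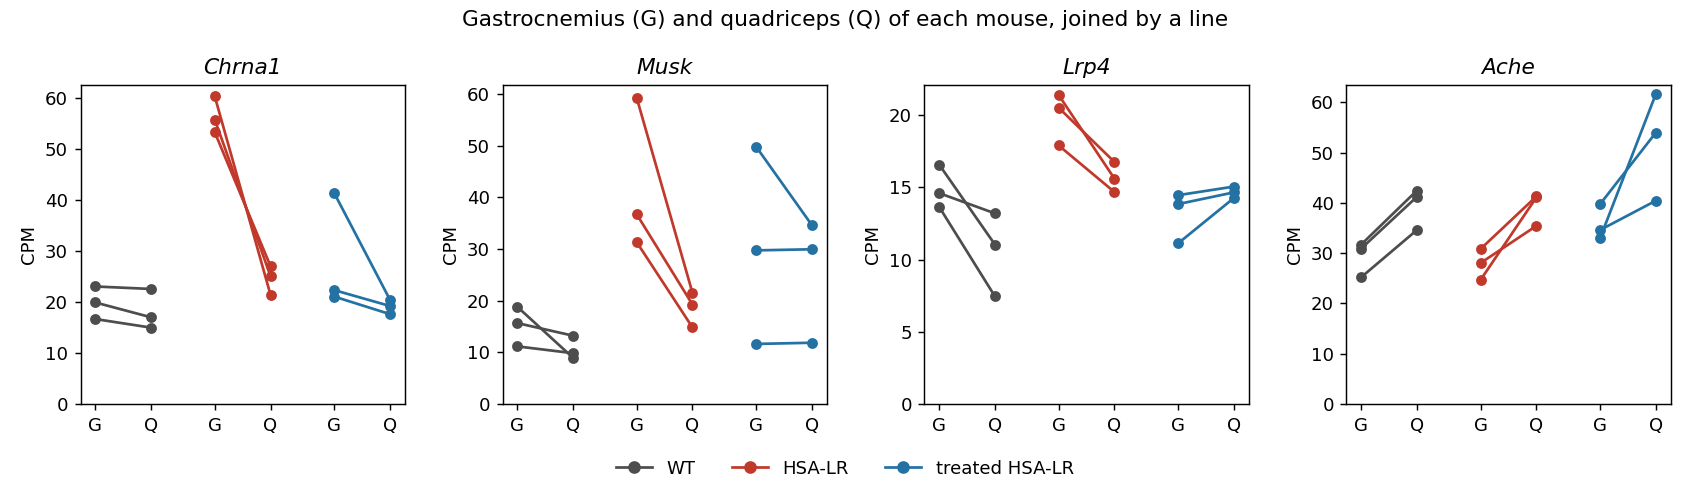
CPM of Chrna1, Musk, Lrp4 and Ache in gastrocnemius (G) and quadriceps (Q), with a line for each mouse. The 3 HSA-LR lines of Chrna1 fall from 53.3 to 60.3 CPM to 21.4 to 27.0 CPM, the lines of treated mouse 3 for Musk are low in both muscles (11.6 and 11.9 CPM), and the Ache lines rise from G to Q in all 9 mice.

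Exon bins were examined to see whether the gene sums concealed changes of isoform. An exon bin is a stretch of exon between annotated exon ends, and its use is tested relative to the rest of its gene. The 10 genes gave 165 tested bins in the gastrocnemius and 170 in the quadriceps, and diffSpliceDGE called 0 of them in each of the 6 comparisons. In the order HSA-LR against WT, treated against HSA-LR and treated against WT, the bins at an unadjusted P under 0.05 numbered 3, 6 and 0 in the gastrocnemius and 1, 5 and 1 in the quadriceps, and limma voom with diffSplice also called 0. Of all bins, 0.819%, 0.309% and 0.0654% were called in the gastrocnemius and 0.284%, 0.168% and 0.0353% in the quadriceps.

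The 9 bins of Chrna1 moved together. In the gastrocnemius each was between 2.54 and 3.28 times its WT level in HSA-LR mice and between 1.28 and 1.58 times in treated mice. In the quadriceps the same 9 bins stood between 1.14 and 1.47 times the WT level in HSA-LR mice. All 20 Musk bins with enough counts were higher in HSA-LR than in WT gastrocnemius, between 1.95 and 4.45 times, and 19 of 20 were higher in treated than in WT mice. As with the sum, none of the 18 Chrnb1 bins was above its WT level in treated gastrocnemius (0.465 to 0.844 times).

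The Musk bin that stood below the others was a 338-base noncoding stretch at chr4:58303987-58304324 (GRCm38), directly after a coding bin. It held 22 to 28 counts in HSA-LR quadriceps, 1.15% ± 0.518 of the gene (SD, n = 3), and 5 to 7 counts in treated quadriceps, 0.253% ± 0.205. The use of this Musk bin differed by a log2 FC of -2.50 (adjusted P = 0.787), and it was called without treated quadriceps mouse 3 (-2.99, adjusted P = 0.00167; -2.96 against WT mice, adjusted P = 0.0124). A 720-base noncoding bin of Ache at chr5:137288368-137289087 had the smallest P in the gastrocnemius, with lower use in treated than in HSA-LR mice (log2 FC -0.90, adjusted P = 0.514).

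A 30-base coding bin of Musk at chr4:58327326-58327355 (plus strand), present in 4 of 8 annotated transcripts, is shown because annotated transcripts differ in it and it adds or removes a short coding stretch.
Musk 30-base bin: aagacagagaacctgagcaggacgctaaag
Its counts were 32.3% ± 5.93 of the mean of the coding bins on either side in WT, 43.3% ± 1.67 in HSA-LR and 39.2% ± 1.91 in treated gastrocnemius (SD, n = 3), not corrected for bin length. The HSA-LR range (41.6% to 45.0%) was above the WT range (26.5% to 38.3%), with 18 to 145 counts in the bin. In the quadriceps the shares ranged from 23.9% to 64.0% in WT and from 32.4% to 56.0% in HSA-LR mice. The bin was not called in either muscle (adjusted P = 1 in both).

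**Figure D4:**
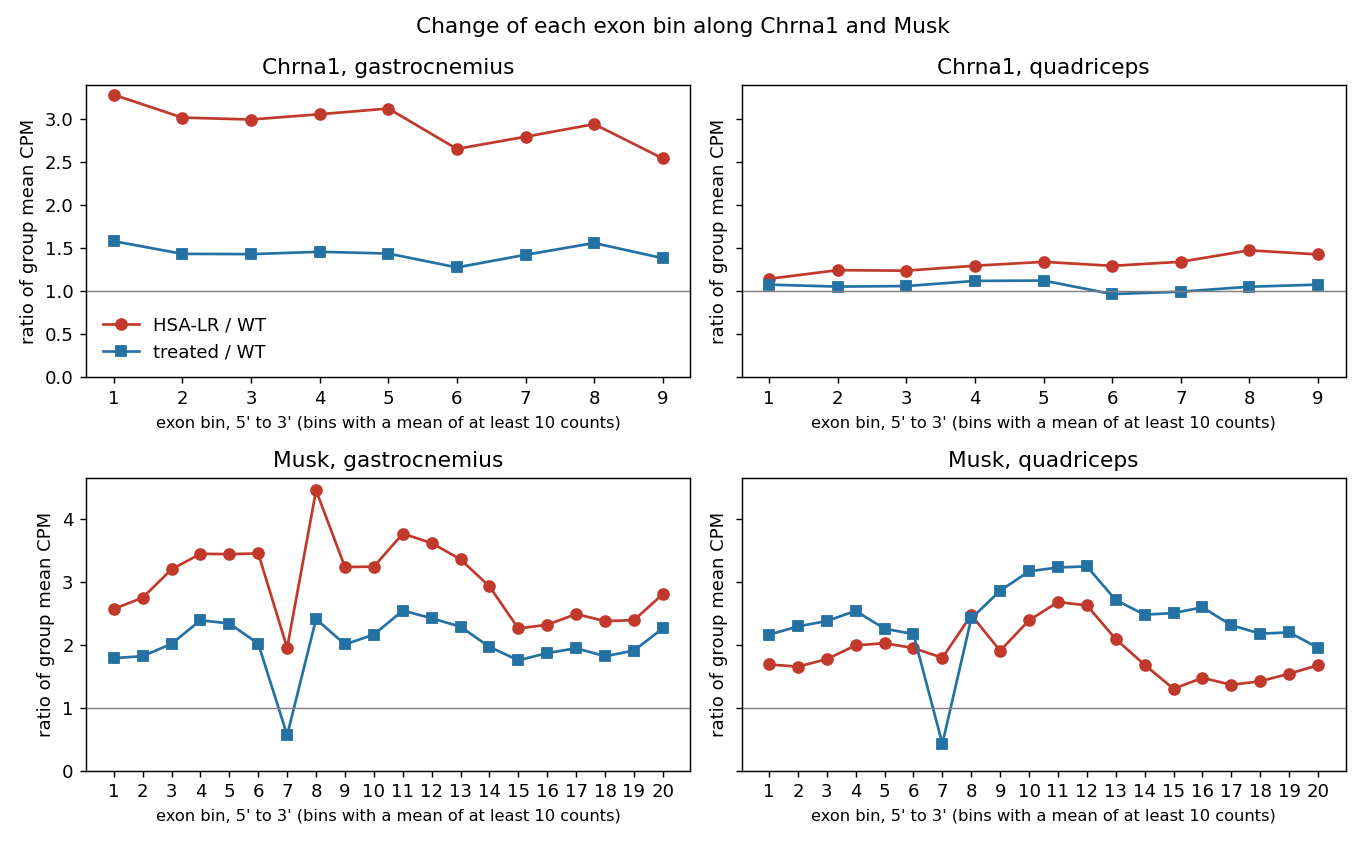
Ratio of group mean CPM to WT for each exon bin of Chrna1 and Musk, in 5' to 3' order, on a linear axis from 0 (bins with a mean of at least 10 counts). The Chrna1 bins lie between 2.54 and 3.28 in HSA-LR gastrocnemius, and the dip at the seventh Musk bin is the 338-base noncoding bin, at 0.562 and 0.427 in treated gastrocnemius and quadriceps.

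Other genes of the junction were read beside the members, from a list of 35 of which 30 were tested. In HSA-LR gastrocnemius 4 rose and 0 fell, against the same background of 15.5%, with a median log2 FC of 0.10. They included Sntb1, which encodes a syntrophin of the dystrophin complex, Ank3, which encodes the membrane scaffold ankyrin G, and the kinase gene Pak1. Sntb1 changed most, from 2.39 to 3.73 CPM in WT mice to 20.0 to 26.6 CPM in HSA-LR mice (log2 FC 3.01 ± 0.29, adjusted P = 0.000446), and fell in treated mice to 2.66 to 5.81 CPM (log2 FC -2.37 ± 0.28). With treatment 3 of the 30 fell (Sntb1, Ank3 and Dtna) and 0 rose, where 10% of all genes were called, a share equal to that of the list. Against WT mice 1 of the 30 was called higher in treated gastrocnemius, by edgeR and by DESeq2, against 1.04% of all genes.

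In HSA-LR quadriceps 7 of the 30 rose and 2 fell, where 20.3% of all genes were called. The 4 with the smallest P were Sntb1 (log2 FC 2.78 ± 0.25), Ncam1, the neural cell adhesion molecule (1.13 ± 0.17), Scn4a, the muscle sodium channel (-0.62 ± 0.11), and Lama5, a laminin chain of the synaptic basal lamina (-0.48 ± 0.10). Treatment lowered Sntb1 (log2 FC -2.83 ± 0.25), Ncam1 (-0.58 ± 0.16) and Chrna10 (-2.05 ± 0.59) and raised Scn4a (0.63 ± 0.11), 4 of 30 genes against 13.8% of all genes. In the quadriceps 0 of the 30 were called against WT mice by edgeR (7 at an unadjusted P under 0.05, 4 by DESeq2). Chrna10 held at most 0.26 CPM in any quadriceps library. For HSA-LR against WT mice, the list gave 4 rises without WT mouse 2 and 6 without WT mouse 3 in the gastrocnemius, and 6 and 9 rises in the quadriceps. For treated against HSA-LR gastrocnemius it gave 1 fall without WT mouse 2, 2 without WT mouse 3 and 2 without treated mouse 3.

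A list of 19 genes known to respond to denervation, apart from the members, had 18 tested. In HSA-LR gastrocnemius 5 rose and 0 fell (median log2 FC 0.20), where 15.5% of all genes were called. They were led by Sln, sarcolipin, an inhibitor of the calcium pump (4.64 ± 0.48), the transcription factor gene Runx1 (1.53 ± 0.18), the growth factor gene Gdf5 (1.95 ± 0.44) and Myod1 (0.78 ± 0.19). The level of Gdf5 was very low, with a mean of 0.063 CPM in WT and 0.245 CPM in HSA-LR gastrocnemius. By edgeR, 7 of the 18 had an unadjusted P under 0.05 in this muscle, so most of the list did not differ at that level. Apart from Myog, genes not called are not named here, so the named genes do not stand for the whole list. In HSA-LR quadriceps 6 rose and 1 fell (median log2 FC 0.55), where 20.3% of all genes were called. The smallest P were those of Myh8, perinatal myosin (1.21 ± 0.11), Runx1 (1.91 ± 0.20), Ncam1, which stands on both lists (1.13 ± 0.17), and Sln (4.38 ± 0.75). The 1 that fell was Myog, the gene of myogenin (log2 FC -0.93 ± 0.32, adjusted P = 0.0881), named here after its values were seen. Its level was 6.48 to 24.1 CPM in WT and 5.20 to 5.75 CPM in HSA-LR gastrocnemius.

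With treatment, 4 of the 18 fell and 0 rose in the gastrocnemius, against 10% of all genes, namely Sln (log2 FC -3.57 ± 0.45), Runx1 (-1.08 ± 0.18), Gdf5 (-1.82 ± 0.45) and Cdkn1a, a cell cycle inhibitor gene (-0.67 ± 0.20). Mean Gdf5 in treated gastrocnemius was 0.068 CPM. In the quadriceps 4 fell and 1 rose, against 13.8% of all genes, the smallest P being those of Myh8 (-0.62 ± 0.11), Hdac4, a repressor of activity-dependent genes (0.95 ± 0.18), Runx1 (-0.73 ± 0.19) and Ncam1 (-0.58 ± 0.16). Against WT mice 0 were called in treated gastrocnemius by edgeR (5 at an unadjusted P under 0.05, 1 by DESeq2), and 3 in treated quadriceps, against 1.41% of all genes: Runx1 (1.18 ± 0.20), Myh8 (0.60 ± 0.11) and Hdac4 (0.98 ± 0.18). Satellite cell genes (6 measured) summed to 29.8 to 38.5 CPM across all libraries, mostly from Cdh15 (19.3 to 26.1 CPM). In HSA-LR against WT mice 2 of the 6 rose and 0 fell in each muscle, with median log2 FCs of 0.47 in the gastrocnemius and 0.49 in the quadriceps, and their part in the list's changes was not tested. Mean Pax7, the gene of a satellite cell transcription factor, was 0.839 CPM in WT and 1.23 CPM in HSA-LR gastrocnemius, and 0.734 and 1.45 CPM in the quadriceps. Without WT mouse 2 or 3, respectively, the denervation list gave 4 and 7 rises in HSA-LR gastrocnemius and 6 and 8 in HSA-LR quadriceps, where Myog was not called without WT mouse 3. Without treated mouse 3 the falls in treated quadriceps numbered 1 in place of 4, and the calls against WT mice were 1 without WT mouse 2.

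The genes nearest to Chrna1 in the pattern of 6 group means (log2 CPM, centred, 15263 genes compared) were Myo15b, with a root mean square difference of 0.11, Hs6st2 (0.12), 1700061E17Rik (0.12), Gm38293 (0.13) and Rpl13-ps6 (0.15). Each was highest in HSA-LR gastrocnemius, as was Chrna1, which follows from choosing them by this pattern and is no separate result.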

How the data were processed

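RNA-seq counts covered gastrocnemius and quadriceps of 9 mice, 3 per group. The authors deposited raw counts of reads per exon bin, not normalized and with replicates kept separate. Per the labels, libraries were made with a stranded polyA kit, and the submitters' processing notes name CASAVA, HISAT and featureCounts 1.5.0 with the GRCm38 build. The strand setting of the counter is not given in the sources used here, yet genes annotated on the other strand of Rapsn, Ache and Chrne (Gm13778, Gm42456 and 4930544D05Rik) held at most 70 counts in a library. Entries that name no gene (2.82% to 4.14%) were left out. A read that overlaps several bins can count in each, so bin sums weight genes with short bins. Bins were located by rebuilding them from GENCODE M21, and 46520 of 46725 genes had a symbol.

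Gene sums were filtered with filterByExpr (minimum count 10, minimum total 15), scaled by TMM and fitted in edgeR 4.0.16 (R 4.3.3) by glmQLFit, with glmQLFTest as the test, with 9 libraries of 1 muscle in a fit, or all 18 for comparisons between muscles, and Benjamini-Hochberg adjustment over all genes. Bins in genes with at least 2 bins were tested with diffSpliceDGE. DESeq2 1.42.0 and limma 3.58.1 served as alternatives, and tables and plots were made with pandas 2.3.3 and matplotlib 3.10.9 under Python 3.11.15. Scripts were tested on simulated data. Groups followed the sample titles. Whether the mice of a group were littermates is not given, so P values measure the spread between these mice. Per the labels, 1 mouse gave both muscles of a number, and deviations of such pairs from group means correlated with a median r of 0.215 (0.0645 to 0.511, 9 pairs).

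The members and gene lists were chosen with earlier results of these data known. All members are named, with up to 4 called genes of smallest P for the 2 other lists, member bins that were called (or, where none was, those of smallest P, chosen after their values were seen), and the 5 genes most like the member of smallest P. Some genes of these lists were not analysed here, and 1 that counts among the junction genes is not reported here by name.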

Additional observations from a re-analysis of the deposited data

How the results depend on the processing

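Counts of members called depended on the mice included. Leaving out each mouse in turn gave 1 to 5 called members for HSA-LR against WT mice in the gastrocnemius and 0 to 3 in the quadriceps, 1 to 4 and 0 to 3 for treated against HSA-LR mice, and 0 to 0 and 0 to 1 for treated against WT mice. Between muscles the ranges were 0 to 0 in WT, 0 to 3 in HSA-LR and 0 to 1 in treated mice, and for exon bins 0 to 1 in treated against HSA-LR and treated against WT quadriceps. In HSA-LR against WT gastrocnemius, the largest exon bin of each gene and the replicate block each gave 1 call. In treated against HSA-LR quadriceps, upper-quartile normalization, no filter and the largest bin each gave 1. In treated against WT mice, DESeq2 gave 1 call in the gastrocnemius and 2 in the quadriceps, and no filter gave 1 in the gastrocnemius. Between muscles, DESeq2 gave 2 calls in HSA-LR and 1 in treated mice, and the mouse as a block gave 1, 3 and 2 in WT, HSA-LR and treated mice. Within a muscle, mouse numbers do not pair groups (median r of 0.0013, -0.231 to 0.255). The cause of these changes was not tested.

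Directions turned for differences that were not called. Chrne in treated against WT gastrocnemius was 0.017 with the replicate block and 0.0067 by DESeq2, Chrne in HSA-LR against WT quadriceps was 0.046 with the largest bin, and Ache there was 0.025 with upper-quartile normalization and 0.061 with the largest bin. With 1 mouse left out, HSA-LR against WT gastrocnemius ran from -0.10 to 0.31 for Chrne, -0.37 to 0.22 for Chrnd and -0.014 to 0.23 for Chrnb1, and treated against WT gastrocnemius from -0.21 to 0.20 for Chrne and -0.063 to 0.62 for Chrnd. In HSA-LR against WT quadriceps the range was -0.26 to 0.16 for Chrne, -0.088 to 0.056 for Ache and -0.050 to 0.35 for Dok7. In treated quadriceps it was -0.41 to 0.049 for Chrne and -0.42 to 0.44 for Chrng against HSA-LR mice, and -0.45 to 0.012 for Chrne and -0.041 to 0.26 for Chrna1 against WT mice. For Musk between the muscles of treated mice it was -0.0083 to 0.40.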
